A study of Mus musculus with 2 samples.

Results

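The TRIM (tripartite motif) genes encode a family of ubiquitin ligases, and their signals were compared between the colon of mice with an intestinal epithelial deletion of the prostaglandin E2 receptor EP4 and the colon of control mice. A gene was taken as a member when its symbol is Trim followed by a digit, and it was kept when a probe of it was well above background on at least 1 array by the flag of the scanner software. The reference table of mouse genes holds 69 such genes, 65 of them had a probe, and 46 of these 65 (70.8%) were kept, out of 14679 genes kept by the same rule in all. Trim5, Trim23, Trim30c and Trim43a had no probe matched to them. The 19 genes that were not well above background on either array were Trim7, Trim10, Trim17, Trim29, Trim30b, Trim38, Trim42, Trim43b, Trim50, Trim55, Trim58, Trim60, Trim61, Trim63, Trim67, Trim69, Trim72, Trim75 and Trim80. Just inside this limit lay Trim54, which read 122 normalized units on the EP4 cKO-labelled array, and just outside it lay Trim72, whose brighter reading there was 59.1.

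RNA of whole colon was hybridized to 2 Agilent mouse arrays of 1 colour, 1 per genotype, and by the labels each array received RNA combined from 3 pools of colon tissue. The control carried Villin-Cre, a transgene that expresses Cre recombinase from the villin promoter in intestinal epithelium, and the other group (EP4 cKO) carried Villin-Cre together with EP4flox/flox, that is floxed Ptger4. Both were on the strain C57BL/6, both thus expressed Cre, and the methods give an age of 8 weeks. Cre driven by villin acts in epithelial cells, while the RNA came from the whole tissue, so RNA of cells in which this Cre is not expressed was included. The methods state n = 3 per genotype, but 1 array per genotype was analysed here, so the comparison has no replicate check and no test, SD or p-value is given.

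Most TRIM proteins have a RING finger, which carries the ubiquitin ligase activity, followed by B-box zinc fingers and a coiled coil, and they are sorted into classes by what stands at the C-terminal end. Many members with a B30.2 domain at that end act in innate immunity, either as restriction factors against viruses or by attaching ubiquitin to the sensors, adaptors and kinases that lead to interferon and NF-kB, and several are themselves induced by interferon. Other classes bind chromatin, microtubules or RNA.

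Signals were scaled so that the trimmed mean of each array was 2500, and a ratio is the scaled signal on the EP4 cKO-labelled array over that on the Villin-Cre array. A gene with several probes was read from the brightest on average, and every probe of the TRIM genes was a single spot. The error given beside a log2 ratio is that of the scanner software, which covers the spot alone and not the mice. It was 0.20 to 0.35 over the 41 TRIM genes well above background on both arrays. Of all probes, 45.4% were well above background in Villin-Cre and 51.6% in the other, and no spot was saturated. Ptger4, the targeted gene, read 6227 in Villin-Cre and 5661 in the EP4 cKO-labelled sample by its brighter probe, a log2 ratio of −0.14, and 393 and 592 by its dimmer probe, a log2 ratio of 0.59. Neither probe was lower by 2-fold, and where they lie relative to the floxed part was not analysed here, so on these arrays the genotype rests on the label.

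Among the 46 TRIM genes, 10 (21.7%) exceeded 2-fold upward in the EP4 cKO-labelled sample and 0 exceeded it downward. Over all 14679 genes, 4.88% exceeded 2-fold upward and 7.98% downward. The 10 genes were Trim15, Trim40, Trim30a, Trim30d, Trim12a, Trim6, Trim47, Trim34a, Trim31 and Trim12c, and all of them were well above background on both arrays. The other 36 were not counted past 2-fold. Among them, Trim9, Trim30e-ps1, Trim65 and Trim66 have lower bounds that do not exclude it, and Trim54 gave no fold. At 3-fold, 5 TRIM genes were higher and 0 lower, against 2.21% and 3.73% of all genes. At 1.5-fold 13 were higher, including Trim66 by its bound, and 8 lower, against 9.86% and 18.7%. The middle of the family was not shifted in the same way: its median log2 ratio was 0.01, against −0.10 over all genes, with 23 TRIM genes above 0, 22 below 0 and 1 at 0, where 57.5% of all genes were below 0. Of the 23, 4 are bounds of genes well above background on the EP4 cKO-labelled array alone. Over the 41 genes measured on both arrays, 19 were above 0 and 22 below, with a median of −0.079 against −0.15 over all genes so measured. The family thus held a high tail without a matching low one, and its log2 ratios ran from −0.83 for Trim44 to 2.38 for Trim15. On the error of the scanner software alone, 13 of the 41 genes measured on both arrays were above 0 by more than 2 errors and 12 were below it by as much, against 13.2% above and 26.8% below of the 12808 genes so measured.

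**Figure D1:**
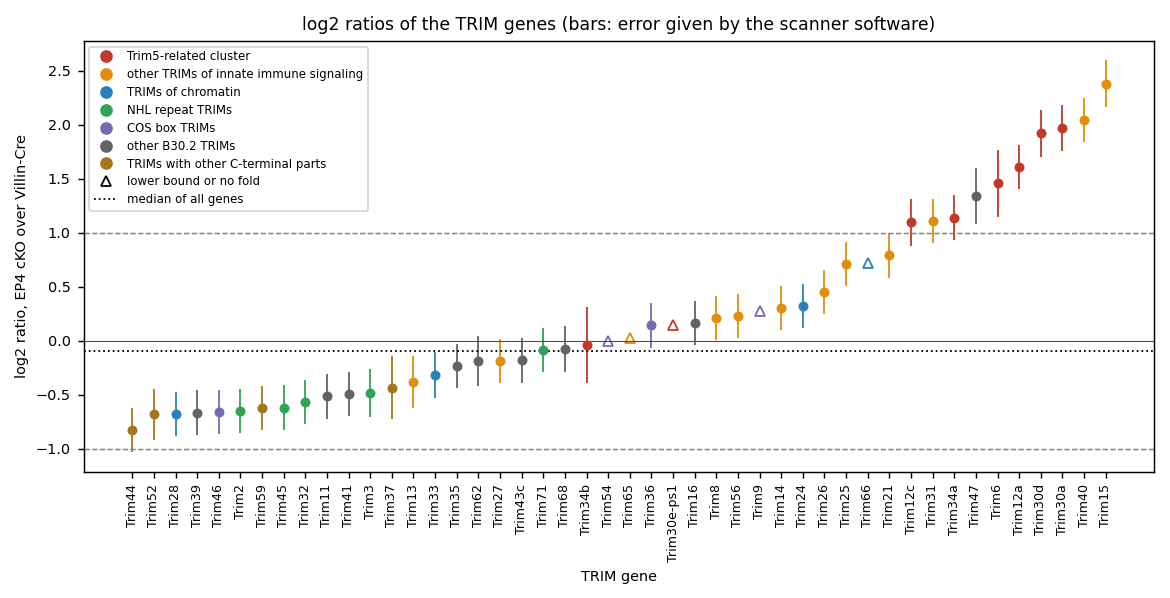
log2 ratio of the EP4 cKO-labelled over the Villin-Cre array for the 46 TRIM genes, in order, with 1 array per genotype. Bars are the error given by the scanner software, colours are the role lists (the list of NHL repeats includes Trim45), open triangles are lower bounds or genes with no fold, dashed lines mark 2-fold and the dotted line is the median of all genes. The 10 genes above the upper line reach from 1.09 to 2.38, and no gene lies below the lower line.

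The Trim5-related genes, relatives of the retroviral restriction factor Trim5 that lie in a cluster on chromosome 7, contributed 6 of the 10. The reference table places 11 TRIM genes in this cluster, of which 8 had a value, 6 were more than 2-fold higher, 0 were lower, and their median log2 ratio was 1.30. Before their values, stretches of the promoters of 5 of them are given, because these share a short element and because near neighbours in the cluster are close copies of each other. The letters searched were GAAA, any 2 bases and GAAA again, the core of the interferon-stimulated response element, on both strands, in a window of 300 bases from 250 before to 50 after each gene start (RefSeq, GRCm38.p6). Capitals mark the match, and it reads TTTC, 2 bases and TTTC where it lies on the strand opposite to the gene:
Trim30a, chr7:104465195-104465279, minus strand: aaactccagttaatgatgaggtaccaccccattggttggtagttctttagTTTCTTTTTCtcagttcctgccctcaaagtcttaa
Trim30d, chr7:104507856-104507940, minus strand: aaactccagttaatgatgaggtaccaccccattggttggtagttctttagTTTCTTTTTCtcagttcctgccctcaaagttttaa
Trim12a, chr7:104315466-104315535, minus strand: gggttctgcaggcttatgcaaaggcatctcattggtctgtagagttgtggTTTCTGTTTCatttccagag
Trim12c, chr7:104353344-104353428, minus strand: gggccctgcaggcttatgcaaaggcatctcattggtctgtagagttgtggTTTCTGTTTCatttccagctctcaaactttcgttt
Trim34a, chr7:104244417-104244486, plus strand: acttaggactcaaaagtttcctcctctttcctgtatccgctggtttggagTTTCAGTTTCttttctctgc

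The match began 36 bases before the gene start in Trim30a, 41 before it in Trim30d and 29 before it in Trim12c, and at base 11 of the transcript in both Trim12a and Trim34a. A second window of Trim30a, chr7:104446076-104446375, also held a match, at base 3 of its transcript. The windows of Trim30a and Trim30d, lined up at the match, were the same at 276 of 295 bases, and at 59 of the 60 bases around it. Those of Trim12a and Trim12c were the same at 57 of the 60 bases around the match, but at 120 of 261 over the whole windows compared without gaps. Within each pair the matches thus lie in near-identical sequence and are not separate occurrences.

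Trim30a, which restrains NF-kB by bringing about the loss of the adaptors TAB2 and TAB3, read 680 in Villin-Cre and 2660 in the EP4 cKO-labelled sample; pairs of signals below are in this order. Its log2 ratio was 1.97 with an error of 0.21. Its paralog Trim30d had 585 and 2214, a log2 ratio of 1.92 with an error of 0.22. A second, dimmer probe of Trim30d gave 330 and 685, a log2 ratio of 1.05, and this gap of 0.87 was the widest between probes of one TRIM gene among probes well above background on both arrays. Both genes were higher by each of their probes. Of the remaining Trim30 genes, the transcribed pseudogene Trim30e-ps1 was well above background on the EP4 cKO-labelled array alone, at 139, which gave a log2 ratio of at least 0.15.

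Trim12a had 5318 and 16210, a log2 ratio of 1.61 (error 0.20), and its second probe gave 469 and 1542, a log2 ratio of 1.72. Trim12c, reported to act with Traf6 in the induction of type I interferon, had 680 and 1452 by its brighter probe, a log2 ratio of 1.09 (error 0.22), and 168 and 544 by its dimmer one, a log2 ratio of 1.69. All 4 probes of this pair were thus more than 2-fold higher. Trim34a, a gene induced by interferon, had 1095 and 2413, a log2 ratio of 1.14 with an error of 0.21. Its next probe gave 658 and 1019, a log2 ratio of 0.63, and of its other 2 probes, well above background on 1 array, one had a bound of at least 0.10 and one gave no fold. Trim34a was therefore past 2-fold by its brightest probe alone, and the mean over its probes was 0.47.

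Trim34b, the close copy of Trim34a, had 153 and 149, a log2 ratio of −0.04 with an error of 0.35. The Villin-Cre reading of Trim34b lay near 125, the lowest signal well above background on that array, so this ratio is a weak measure. By it, Trim34b was not past 2-fold where the brightest probe of Trim34a was. The next probe of Trim34a, at 0.63, was not past 2-fold either. Trim6, which makes unanchored ubiquitin chains used in the activation of the kinase Ikbke, had 196 and 538, a log2 ratio of 1.46 with an error of 0.31, the widest error among the 10. The sequences of the probes were not analysed here, so how far the signals within the pairs Trim30a and Trim30d, Trim12a and Trim12c, and Trim34a and Trim34b belong to separate genes is uncertain.

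**Figure D2:**
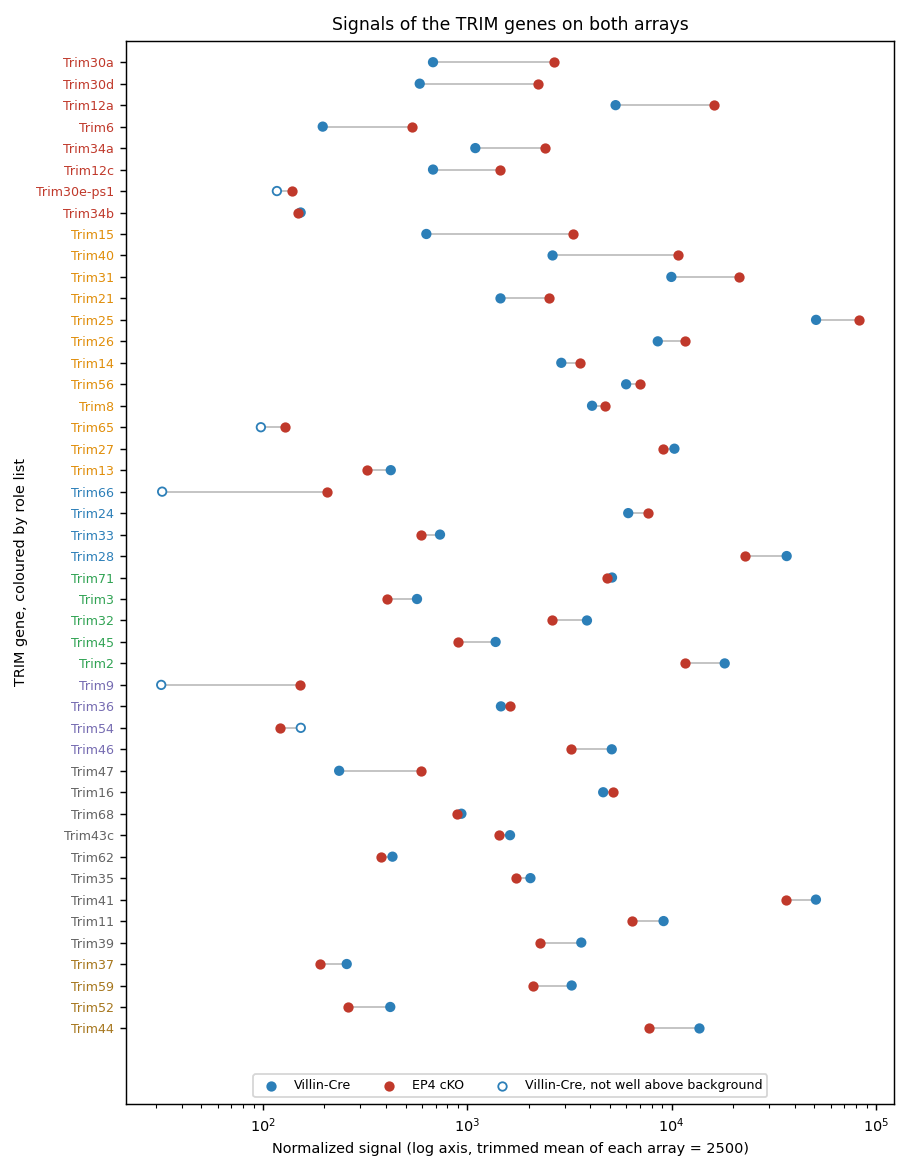
Normalized signal on the Villin-Cre array (blue) and the EP4 cKO-labelled array (red) for each of the 46 TRIM genes, 1 array per genotype, on a log axis, with gene names coloured by role list. Open circles are readings not well above background. Grey lines join the readings of a gene, and distances along the axis are to be read within a gene, since probes differ in brightness. Trim15 has 631 and 3280, Trim44 has 13682 and 7707.

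The other TRIM genes of innate immune signaling numbered 15, of which 12 had a value, 3 were more than 2-fold higher, 0 were lower, and the median log2 ratio was 0.38. The 3 were Trim15, Trim40 and Trim31, which in mouse lie close together on chromosome 17 and are known for expression in the gastrointestinal tract. Trim15, described both in signaling downstream of Rig-I and in the turnover of focal adhesions, had 631 and 3280, a log2 ratio of 2.38 with an error of 0.22, or 5.20-fold, the highest in the family. Trim40, described as an inhibitor of NF-kB in the gut, had 2615 and 10798, a log2 ratio of 2.05 with an error of 0.20. Its second probe was not well above background on the Villin-Cre array, at 28.6, and reached 329 on the other, at least 2.62-fold higher. Trim31, which attaches ubiquitin to the adaptor Mavs and to the inflammasome sensor Nlrp3, had 9970 and 21433.5, a log2 ratio of 1.10 with an error of 0.20.

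Below these, Trim21, the intracellular receptor for the constant part of antibodies, had 1454 and 2516, a log2 ratio of 0.79 with an error of 0.21. Trim25, the ligase of Rig-I and also a ligase for the ubiquitin-like protein Isg15, had 50912 and 83042 by its brighter probe, a log2 ratio of 0.71, and 593 and 1679 by its dimmer probe, which is 2.83-fold higher. The brighter probe of Trim25 lay within 2-fold and the dimmer one past it, and their mean was 1.10. Trim26, a neighbour of Trim15 on chromosome 17 that acts on Irf3, had 8554 and 11691, a log2 ratio of 0.45.

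The remaining innate immune members measured on both arrays lay closer to 0 by their brightest probe. Trim14, which lacks a RING finger and binds Mavs, had log2 ratios of 0.30 and 0.48 by its 2 probes, Trim56, a partner of Sting, 0.23, and Trim8, an activator of NF-kB, 0.21 and −0.27 by its 2 probes. Trim8 was the exception among 16 TRIM genes with several probes measured on both arrays: in the other 15, the probes had one sign. Trim65, a ligase of the sensor Ifih1, had a bound of at least 0.03. Trim27, a repressor of NF-kB signaling, had −0.19, and Trim13, a ligase of the endoplasmic reticulum membrane, had 422 and 323, a log2 ratio of −0.39. By their brightest probe, these and Trim34b were the genes below 0 on the immune lists.

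Of the other classes, Trim47 alone was counted past 2-fold. The bounds of Trim66 and Trim9, at least 0.72 and 0.28, do not exclude a change past it. Trim66 and Trim9 were past 2-fold with the loess, at 1.62 and 1.17, and with no filter, at 2.69 and 2.26. Trim47, which has a B30.2 domain, had 236 and 596, a log2 ratio of 1.34 with an error of 0.26. The list of other B30.2 genes to which it belongs held 20 genes, 9 with a value, and its median log2 ratio was −0.19. Trim41 had 50826 and 36131, a log2 ratio of −0.49, and −0.81 by its second probe. Trim39, the lowest ratio of that list by the brightest probes, had 3613 and 2278, −0.67, and −0.32 by its second probe. A further probe of each of Trim41 and Trim39 gave no fold. Trim11 had −0.52, Trim35 −0.23, Trim62 −0.19, Trim43c −0.18, Trim68 −0.08 and Trim16 0.16. Apart from Trim47, the genes of this list thus lay between −0.67 and 0.16 by their brightest probe.

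The TRIM genes of chromatin had 4 values with a median log2 ratio of 0.00 and no common direction, and without Trim66, a bound, the median of the other 3 was −0.32. Trim28, the corepressor that KRAB zinc finger proteins recruit to silence retroelements, had 36554 and 22830, a log2 ratio of −0.68, and −0.83 by its second probe. Trim24, a coregulator of nuclear receptors, had 6132 and 7668, a log2 ratio of 0.32. Trim33, which acts on Smad4 in TGF-beta signaling, had 735 and 590, a log2 ratio of −0.32, and its other probes gave −0.39 and −0.52. Trim66 was well above background on the EP4 cKO-labelled array alone, at 207, with a bound of at least 0.72.

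Every member of the next class lay below 0, except that Trim71 was above 0, by at most 0.07, with the 75th percentile, the loess and the trimmed mean over all spots, and that all were above 0 with the E1A control spots described below. The list of TRIM genes with NHL repeats, joined here by Trim45, which has a filamin-type repeat without them, had 5 values, 0 past 2-fold in either direction, and a median log2 ratio of −0.57. Trim2, a ligase of the neurofilament light chain, had 18186 and 11603, a log2 ratio of −0.65. Trim45 had 1376 and 896, a log2 ratio of −0.62, and Trim32, whose human counterpart is mutated in a limb-girdle muscular dystrophy, had 3852 and 2601, −0.57. Trim3 had −0.48, and Trim71, a regulator of mRNAs in stem cells, had 5108 and 4821, −0.08. Relative to the median of all genes, the median of this list was −0.47 to −0.20 over 7 other settings of scaling, background, filter and probe and the reported one.

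The TRIM genes with other C-terminal parts, whose values were above 0 with the E1A control spots, lay lower still, with a median log2 ratio of −0.65 over 4 values. Trim44, which lacks a RING finger and carries a zinc finger of the ubiquitin protease type, had 13682 and 7707, a log2 ratio of −0.83. This is 1.78-fold lower and the lowest value in the family by the brightest probes. A second, dimmer probe of Trim45 gave −0.91 with an error of 0.40. Trim52 had 420 and 262, a log2 ratio of −0.68, Trim59, a membrane-anchored member, had 3242 and 2108, −0.62, and Trim37, which has a MATH domain, had −0.44. Relative to the median of all genes, this list was at −0.55 to −0.28 over the same settings. Among the COS box genes, which bind microtubules, the median over 4 values was 0.07, and −0.26 over the 2 measured on both arrays: Trim46, an organizer of axonal microtubules, had 5094 and 3222, a log2 ratio of −0.66, Trim36 had 0.14, Trim9 had a bound of at least 0.28, and Trim54 gave no fold. The direction of all these values below 0 depends on the scaling. Under those 7 settings, 17 of the 22 TRIM genes below 0 kept a log2 ratio below 0 in each, but when the arrays were scaled to the E1A control spots, an alternative chosen after seeing the data that raised the median of all genes by 0.97, all 46 TRIM genes were above 0 and none was below.

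**Figure D3:**
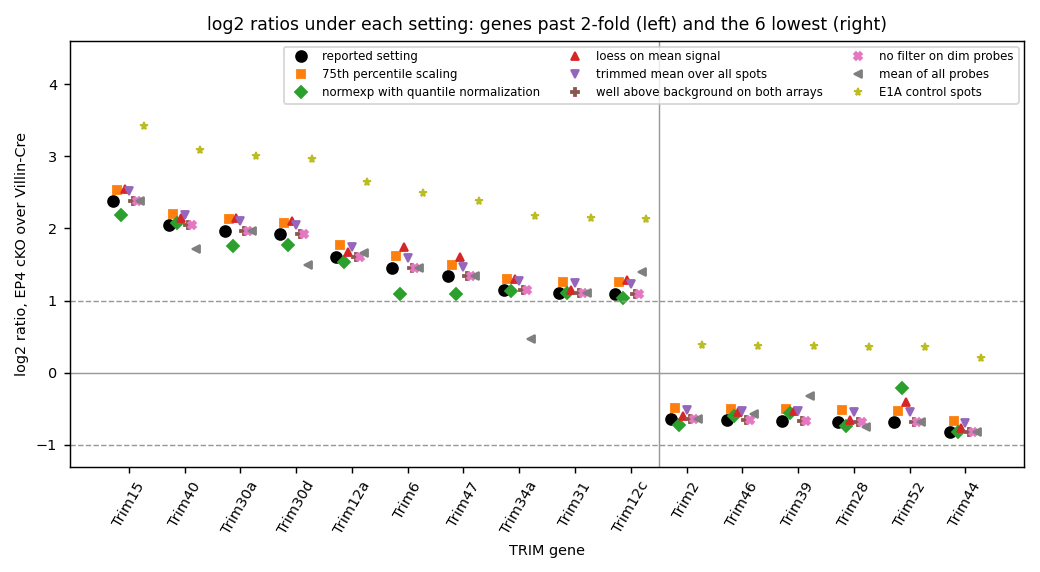
log2 ratio of the 10 TRIM genes past 2-fold (left of the grey line) and of the 6 lowest (right) under the reported setting (black) and 8 other settings, 1 array per genotype. Trim34a is at 0.47 with the mean of all probes, the other 9 genes on the left stay above 1 in every setting, and the E1A control spots lift all 16 genes above 0.

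In the order of the genes along the chromosomes, which was examined after the values were seen, the higher TRIM genes lay in 2 stretches. The cluster on chromosome 7 from Trim6 to Trim30e-ps1 holds 11 TRIM genes in the reference table, of which 8 had a value and 6 were more than 2-fold higher. It also holds 10 genes that are not TRIM genes, mostly pseudogenes and small RNAs, and the single one with a value was the long noncoding RNA Gm15133, next to Trim12a, with 472 and 1237 and a log2 ratio of 1.39. The group on chromosome 17 from Trim26 to Trim31 holds 5 TRIM genes, of which 4 had a value and 3 were more than 2-fold higher, with a median log2 ratio of 1.58. Of the 12 TRIM genes with a value in both stretches 9 were more than 2-fold higher, with a median of 1.30. Of the 34 elsewhere it was 1, Trim47, with a median of −0.19. The stretches were chosen with the values known, so these counts are a description.

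**Figure D4:**
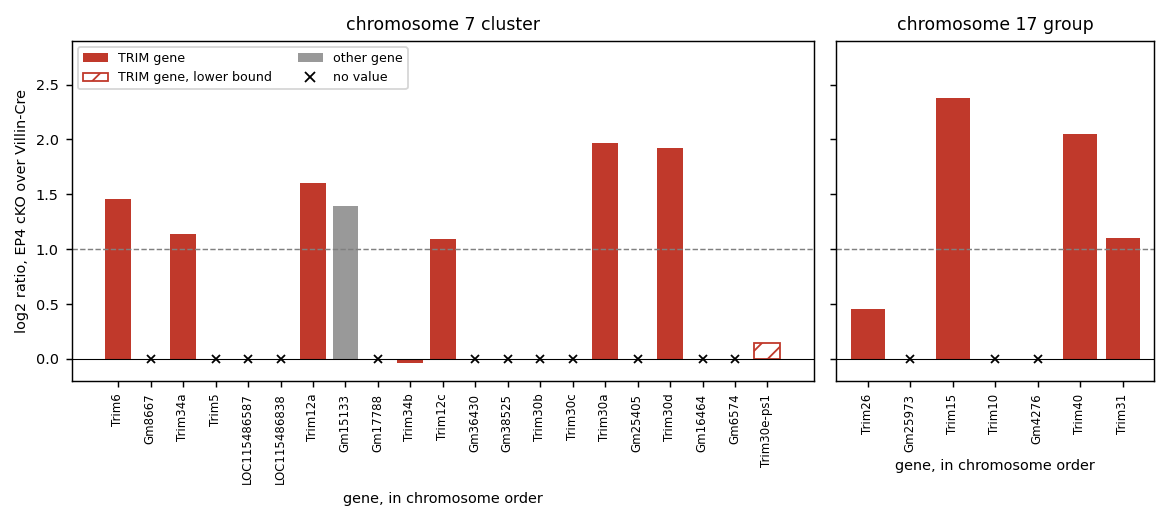
log2 ratio of the EP4 cKO-labelled over the Villin-Cre array for each gene of both stretches, in chromosome order and not to scale, 1 array per genotype. Red bars are TRIM genes, the hatched bar is a lower bound, the grey bar is Gm15133 and crosses are genes with no value. Trim6, Trim34a, Trim12a, Trim12c, Trim30a and Trim30d exceed 1 on chromosome 7, and Trim15, Trim40 and Trim31 on chromosome 17.

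The response element was not limited to the higher genes or present in all of them. Promoter windows were at hand for 35 of the 46 TRIM genes, including all 10 past 2-fold, and not for Trim3, Trim8, Trim11, Trim14, Trim16, Trim30e-ps1, Trim33, Trim35, Trim36, Trim43c and Trim65. The GAAA pair was in a window of 5 of the 10 higher genes (50%) and of 3 of the 25 others (12%). It was in a window of 3.99% of all 27025 genes with a promoter, and of 11.8% of the 552 genes that were more than 2-fold higher. The 5 were the Trim30, Trim12 and Trim34 genes printed above. They are not 5 separate occurrences, because Trim30a and Trim30d, and Trim12a and Trim12c, are near-identical around the match. The 3 were Trim2, Trim21 and Trim26. Those of Trim21 and Trim26 are shown for comparison, because each has a pair of overlapping matches and a gene within 2-fold:
Trim21, chr7:102565453-102565519, minus strand: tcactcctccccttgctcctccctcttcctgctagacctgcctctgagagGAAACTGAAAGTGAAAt
Trim26, chr17:36836936-36837026, plus strand: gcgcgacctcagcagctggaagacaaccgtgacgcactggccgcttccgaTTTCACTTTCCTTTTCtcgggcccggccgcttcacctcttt

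Trim6, Trim47, Trim15, Trim40 and Trim31 had no match, which says only that these letters are not in these windows. A second element, the gamma-activated site of the response to interferon gamma, was searched with the letters TTCNNNGAA, which read the same on both strands. It was in a window of 2 of the 10 higher genes, Trim15 and Trim31, of 2 of the 25 others, Trim45 and Trim46, and of 9.55% of all genes. No window of a TRIM gene with a value held both elements. The stretches of the 2 higher genes are given for their place on chromosome 17, with the match in capitals. Trim15 has 2 windows, and the second holds another match, at base 21 of its transcript, printed last:
Trim15, chr17:36867403-36867460, minus strand: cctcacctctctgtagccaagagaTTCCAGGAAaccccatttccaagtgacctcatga
Trim31, chr17:36897975-36898058, plus strand: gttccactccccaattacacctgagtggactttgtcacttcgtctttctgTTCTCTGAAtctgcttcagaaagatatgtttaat
Trim15, second window, chr17:36867158-36867217, minus strand: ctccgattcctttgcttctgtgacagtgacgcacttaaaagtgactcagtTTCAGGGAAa

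The genes around the TRIM proteins were read from lists of their partners, and their counts stand against 4.88% of all genes higher and 7.98% lower. Of 5 transcription factors that carry the interferon signal, 4 were more than 2-fold higher, with a median log2 ratio of 1.75: Irf7 had a log2 ratio of 2.76, Stat2 1.88, Irf9 1.75 and Irf1 1.36, while Irf8 had 0.59. Of the sensors, adaptors and kinases on which TRIM proteins act, 20 had a value, 5 were more than 2-fold higher and 1 was lower, with a median of 0.15. The 5 were Irf7, Dhx58 with 2.21, Ddx58, which encodes Rig-I, with 1.45, Ifih1 with 1.29 and the kinase Tbk1 with 1.21, and the lower one was Ikbkg, the regulatory subunit of the IkB kinase, with 974 and 381 and a log2 ratio of −1.36. The adaptor Mavs had −0.43, Tab2 and Tab3, targets of Trim30a, −0.17 and 0.03, and the DNA sensor Cgas 0.24, and these were named after their values were seen. The Rig-I-like sensors Ddx58, Ifih1 and Dhx58 were thus past 2-fold, while Cgas and Mavs lay within it.

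The enzymes that pass ubiquitin to TRIM proteins were mostly level. Of 14 E2 enzymes 1 was more than 2-fold higher, a share near the 4.88% of all genes, Ube2l6, with 931 and 3688 and a log2 ratio of 1.99, and the median was −0.02. Of 5 genes for ubiquitin and for E1 enzymes 1 was more than 2-fold higher, Uba7, with 8190 and 21962.5 and a log2 ratio of 1.42. The median was −0.08. Ube2l6 and Uba7 are the E2 and E1 enzymes of Isg15, the modifier that Trim25 also attaches. The ubiquitin genes Ubb and Rps27a had −0.08 and −0.47, and the E1 enzymes Uba1 and Uba6 −0.05 and −0.11. Proteins of TRIM architecture with other gene names had 4 values and 0 past 2-fold: Pml, the organizer of nuclear bodies, had 0.09, Mid1 a bound of at least 0.28, Mid2 −0.34 and Bspry −0.38.

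The RNF genes, another large group of RING finger ubiquitin ligases taken by symbol in the same way, served for comparison. Of 82 with a probe 68 had a value, 2 (2.94%) were more than 2-fold higher and 2 (2.94%) lower, where all genes had 4.88% and 7.98%, and the median log2 ratio was −0.04. The higher ones were Rnf183, at least 4.57-fold, and Rnf24, with a log2 ratio of 1.70, and the lower ones were Rnf32 with −1.59 and Rnf122 with −1.20. The TRIM genes thus held 10 of 46 past 2-fold upward where the RNF genes held 2 of 68, a difference for which no test between conditions is possible with 1 array per genotype.

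**Figure D5:**
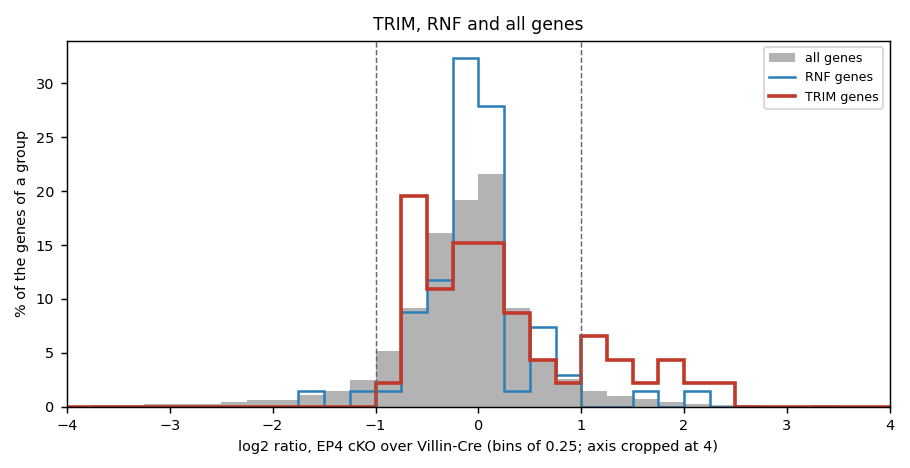
Distribution of log2 ratios of the EP4 cKO-labelled over the Villin-Cre array for all 14679 genes (grey), 68 RNF genes (blue) and 46 TRIM genes (red), as percent of each group in bins of 0.25, 1 array per genotype. Dashed lines mark 2-fold, past which lie 21.7% of the TRIM genes on the right and none on the left, and 2.94% of the RNF genes on each side.

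Markers of cell types were read beside these values, since in RNA of whole tissue fewer cells of a type and less RNA per cell cannot be told apart. All 10 epithelial markers had a value, their log2 ratios ran from −0.42 to 1.80 with a median of −0.01, and 1 was past 2-fold, Krt20, a keratin of the surface epithelium, with 1.80. Their summed signal was 1.7233e+06 in Villin-Cre and 2.14185e+06 in the other. Of 12 leukocyte markers 9 had a value, 1 was past 2-fold, Itgax with 1.73, and the median log2 ratio was 0.18. Ptprc had 0.97, Cd4 0.18, Cd3e −0.10 and Csf1r −0.79. Their summed signal was 64938 and 83624, of which the probe of Itgam alone gave 49347 and 68597.5. Cd79a, Adgre1 and Ncr1 were not well above background on either array. Fibroblast markers differed most: Dcn had 6006 and 110, a log2 ratio of −5.77, and Col1a1 and Lum were well above background on the Villin-Cre array alone, at least 22.7-fold and 8.91-fold lower on the other, while Pdgfra was not well above background on either. Their summed signal was 7834 and 139. Of the 5 smooth muscle markers with a value Cnn1 was lower, with −2.73, Actg2, Acta2 and Tagln had 0.72, 0.62 and 0.38, and Des gave no fold. Their median was 0.38 and the sum was 30048.5 and 45461.5. Of the 4 neural and glial markers with a value 3 were below 0, Uchl1 with −1.43, Elavl4 with −0.82 and Tubb3 with −0.38, and their median was −0.60, while the sum was 39592.5 and 52628 through Snap25, with 35809 and 50735.5. The striated muscle markers with a value summed to 454 and 1306, largely through Acta1, with 235 and 921 and a log2 ratio of 1.97. Tnnt3 had 0.04. Myh2, well above background on the EP4 cKO-labelled array alone, had a bound of at least 0.58. The arrays thus differed in the signals of fibroblast markers, and the part of cell composition in the TRIM values was not tested.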

How the data were processed

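Whole-colon RNA of Villin-Cre and EP4 cKO mice was measured on 1 Agilent array of 1 colour (Cy3) per genotype, and each array was assigned to its genotype by the labels. The authors deposited the intensity of each of 62976 spots per array as processed by the scanner software (Feature Extraction, version 11.5.1.1 in the submitters' processing notes and 12.0.3.1 in the file headers), with background subtracted and no scaling between arrays. The scaling described in the methods was repeated here: the dimmest 2% and the brightest 2% of probes were dropped, and each array was divided by the mean of the rest (724 in Villin-Cre, 931 in EP4 cKO) and multiplied by 2500. This assumes that the arrays hold a similar total of signal. Control spots and outlier spots were left out, and repeated spots were averaged.

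Probes were named by their RefSeq accession in a gene table of GRCm38.p6, and 32989 of 56593 (58.3%) matched. The grid refers to an older assembly, so no gene coordinates are given, and promoter positions are those of the RefSeq table. A probe well above background on 1 array was set against the floor of the other, the lowest signal well above background there (125 for Villin-Cre and 57.8 for EP4 cKO) or its own signal if higher, giving "at least" values. Where the bound did not exceed 1, no fold is given and the gene counts at 0. Precision is limited by the number of arrays. For 252 probes with 10 spots each, log2 ratios of the spots had a median SD of 0.035.

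The genes named are all TRIM genes with a value, partner genes of lists of up to 10, and the largest changes of longer lists. Cell type markers, Mavs, Tab2, Tab3 and Cgas were named after their values were seen. The members and lists were chosen with earlier results of these data known. Some genes of the partner lists are not reported here and are left out of their counts. Calculations used Python 3.11.15 and, for normexp, limma 3.58.1, and were tested on simulated data. Alternatives were another scaling, background correction, brightness trend, filter, fold threshold or choice of probe, and, chosen after seeing the data, scaling to 239 E1A control spots.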

Additional observations from a re-analysis of the deposited data

How the results depend on the processing

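The count of 10 TRIM genes more than 2-fold higher was also found with scaling to the 75th percentile, normexp with quantile normalization, the trimmed mean over all spots, and probes well above background on both arrays. It was 12 with a loess on brightness (Trim9 and Trim66 added) and with no filter, 5 at 3-fold (2.21% of all genes), 13 at 1.5-fold (9.86%), and 23 with the E1A control spots, an alternative chosen after seeing the data. Trim9 and Trim66 were well above background on the EP4 cKO-labelled array alone, and Trim66 is also among the 13. Averaging all probes lost Trim34a and gained Trim25. The count more than 2-fold lower, 0, became 8 of 65 with no filter, all 8 not well above background on either array, where 31.7% of all 22909 genes were lower, and 8 at 1.5-fold (18.7%). The median of 0.01 was 0.15, 0.18, 0.30 and 0.13 under the 75th percentile, normexp, loess and all spots, −0.079 with both arrays and −0.083 with no filter, and 1.03 with the E1A spots. Those settings moved the median of all genes by 0.10, 0.09, 0.14, 0.10, −0.05, −0.27 and 0.97, and over all but the E1A spots the TRIM median stayed 0.07 to 0.29 above that of all genes. The cause was not tested. Genes higher and lower were 7.68% and 5.24% of all with the loess, and 39.2% and 2.30% with the E1A spots. No paired analysis was possible because each genotype has 1 array. Signal over background limits the 19 dim genes, which have no value.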
